A study of Homo sapiens with 18 samples.

Results

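Ribosome occupancy in control lung adenocarcinoma cells was described by setting ribosome footprints against mRNA, gene by gene. NCI-H1975 is an established human lung adenocarcinoma line. The 6 libraries used here, of 18 in the series, come from sgControl cells, labelled as a CRISPR control. The labels do not say which guide they carry or whether they are 1 clone. They are 3 footprint libraries and 3 libraries of poly(A) mRNA. The cells for footprints received 100 µg/ml cycloheximide, which holds cytosolic ribosomes in place. Their lysates were digested with nuclease to leave the RNA covered by ribosomes. The mRNA was taken from total RNA with oligo(dT) beads, and the labels name no cycloheximide for it. For comparison, 2 other conditions of the same line have 3 footprint and 3 mRNA libraries each. They are sgDAMP cells, with a knockout of DAMP, the peptide of the lncRNA DSP-AS1, and Scramble cells, another control. Of 61487 counted genes, 19322 were annotated as protein-coding, and 12999 of these had enough counts to be tested.

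Ribosome profiling reads which stretches of mRNA are covered by translating ribosomes. The ratio of footprints to mRNA is often taken as a measure of how heavily an mRNA is translated. mRNAs with a terminal oligopyrimidine (TOP) start, among them those of ribosomal proteins, are known for translation that follows growth signals through the kinase mTOR. Others are held back by an iron-responsive element, by upstream open reading frames or by the need to read a stop codon as selenocysteine. Canonical histone mRNAs end in a stem-loop and have no poly(A) tail, so oligo(dT) beads miss most of them while footprints do not.

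Gene counts per library lay between 6845899 and 7840852 in footprints and between 17098397 and 17464782 in mRNA, and coding genes held 79.46% to 79.86% of the footprints and 97.38% to 98.5% of the mRNA counts. Reads with more than one alignment made up 23.59% to 23.73% of footprint reads and 5.06% to 5.29% of mRNA reads, so genes with near-identical copies are uncertain. Reads classed as ambiguous between genes made up 3.18% of footprint reads in each library and 13.68% to 14.3% of mRNA reads. The part of this difference in the ratios of footprints to mRNA was not tested. Of 9723 coding genes with at least 30 footprints, 45 differed between the footprint libraries beyond sampling noise. Chi-square over its degrees of freedom, which is 1 under sampling noise alone, averaged 1.67 over all these genes and 0.928 once the highest 1% are left out. Leaving out the highest 1% lowers the average by itself, so 0.928 is not to be set against 1. The other genes did not differ beyond sampling noise by this test, so the libraries were summed and counted as 1 sample. The mRNA libraries differed far more, at 67.8 over all genes and 43.3 without the highest 1%. Nothing in the labels ties a replicate to a culture of its own, so p-values measure only the spread between these samples, which may be technical. Summed over 9 markers of an epithelial or lung adenocarcinoma line, footprints reached 16900 CPM (counts-per-million of coding counts), against 19480 to 25350 CPM in mRNA. EGFR, with 9388 CPM, made up most of the footprint sum and is 1 of the 45 uneven genes, as is KRT7, with 5511 CPM. KRT8, a keratin, made up most of the mRNA sum, with 178 CPM in footprints, against 14020, 13950 and 10480 CPM in mRNA. EPCAM and KRT19, defining epithelial markers, were near absent, with 4.36 and 3.30 CPM in footprints, against 13 and 33 summed counts in mRNA. MUC1 had no footprint, against 3.39, 7.52 and 1.82 CPM in mRNA. NKX2-1, a lung lineage factor, had 0 footprints and 4 mRNA counts, too few to test. The summed fibroblast and endothelial markers gave 1.96 CPM in footprints and 6.29 to 10.98 CPM in mRNA, and the leukocyte markers 7.49 CPM in footprints and 4.94 to 9.90 CPM in mRNA.

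Footprints and mRNA were spread very differently over the genes. Of 12999 coding genes, 4142 (31.9%) were higher in footprints and 4745 (36.5%) were lower at a Benjamini-Hochberg adjusted p under 0.05 in edgeR's quasi-likelihood test, 8887 (68.4%) in all. These p-values and the SEs rest on the assumption that the 1 summed footprint sample varies like the mRNA libraries. With the 3 footprint libraries as replicates instead, 4527 were higher and 5473 lower. The log2 ratio of footprints to mRNA had an SD of 3.52 across genes, with a median of -0.31, a 5th percentile of -6.47 and a 95th percentile of 5.03. At least 4-fold higher footprints were found for 3182 genes and at least 4-fold lower footprints for 4066. The counts of each gene list below are to be read against 31.9% higher and 36.5% lower over all genes, and the list members' medians against -0.31. The zero point comes from TMM scaling over both assays. Total-count scaling moves the median gene by -0.28, so ratios are relative to that zero.

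**Figure D1:**
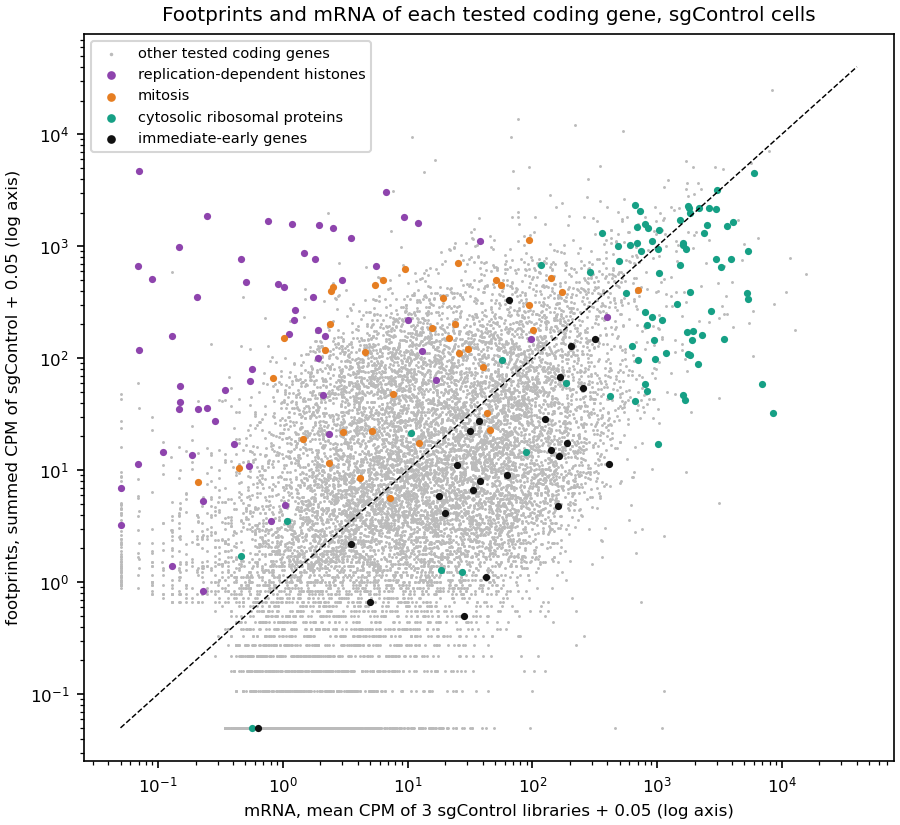
Footprints (vertical axis, CPM of the 3 summed sgControl libraries) against mRNA (horizontal axis, mean CPM of 3 sgControl libraries) for 12999 coding genes on log axes, with 0.05 added. Replication-dependent histones and most mitosis genes lie above the dashed line of equality, and most ribosomal protein and immediate-early genes lie on or below it.

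The 12 highest ratios are given for genes with at least 100 counts in each assay and no overlapping coding gene. Of the 12, 8 are among the 45 genes whose footprints differed between the libraries beyond sampling noise, and whether those footprints arose in the sgControl cells was not tested. TGFBR1, a TGF-beta receptor on chromosome 9 (99103647 to 99154192, GRCh38), had 2091, 2004 and 1825 CPM in footprints, against 1.29, 2.98 and 2.47 CPM in mRNA. Its log2 ratio was 10.05 (SE 0.45, edgeR adjusted p = 8.93e-09). ITGA6, an integrin that binds laminin, had 3469, 3069 and 2816 CPM in footprints, against 4.39, 8.17 and 10.2 CPM in mRNA. Both genes were picked for their ratios in these libraries, so the gap between the assays is a description. EGFR, the receptor that drives growth in many lung adenocarcinomas, had 8689, 10250 and 9135 CPM in footprints, against 56.8, 67.0 and 76.8 CPM in mRNA, a log2 ratio of 7.41 (SE 0.32). CTNNB1, beta-catenin, had 14460, 13440 and 13060 CPM in footprints, against 66.5, 57.8 and 105 CPM in mRNA, a log2 ratio of 7.77 (SE 0.36). RRM1, a ribonucleotide reductase subunit, stood at 8.76, CPSF3, an mRNA 3' end nuclease, at 8.70, MNAT1, a subunit of the CDK-activating kinase, at 7.86, and TWIST1, a transcription factor, at 7.41. The condensin subunits SMC4 and SMC2 (7.85 and 7.58), the kinetochore protein CENPF (7.73) and the spindle motor KIF11 (7.65) complete the set. The mRNA of these last 4 was sparse, as was that of several genes above, TGFBR1 among them. SMC4 had 466, 480 and 466 CPM in footprints, against 1.17, 4.06 and 2.18 CPM in mRNA.

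The 12 lowest ratios were taken by the same rule, whose minimum of 100 footprints limits them to genes with much mRNA. Below RPS2, the lowest of them, lay 334 called genes that all had fewer than 100 footprints. RPS2, a protein of the small ribosomal subunit, had 32.9, 32.4 and 32.7 CPM in footprints, against 8769, 8171 and 8466 CPM in mRNA, a log2 ratio of -7.75 (SE 0.49, edgeR adjusted p = 1.24e-07). ISG15, an interferon-induced ubiquitin-like protein, had 7.68, 10.9 and 10.2 CPM in footprints, against 1537, 1860 and 1760 CPM in mRNA, a log2 ratio of -7.20 (SE 0.53). In both genes, which were picked for their low ratios, each mRNA library was above every footprint library by more than 100-fold. RPLP0, of the ribosomal stalk, followed at -6.59. The p53 target PHLDA3 (-6.22), the centromere protein CENPB (-5.94), the kinase MAP2K2 (-5.92) and the cytolinker PLEC (-5.89) came next, then FKBP8 (-5.77), SLC25A39 (-5.73), HLA-C (-5.69), RHOC (-5.65) and SLC12A7 (-5.62). HLA-C, a class I antigen-presenting molecule, had 6.77, 5.45 and 4.69 CPM in footprints, against 377, 375 and 289 CPM in mRNA. HLA-C has close paralogs, and RPS2 has many near-identical pseudogene copies, so reads with several alignments make both values uncertain.

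**Figure D2:**
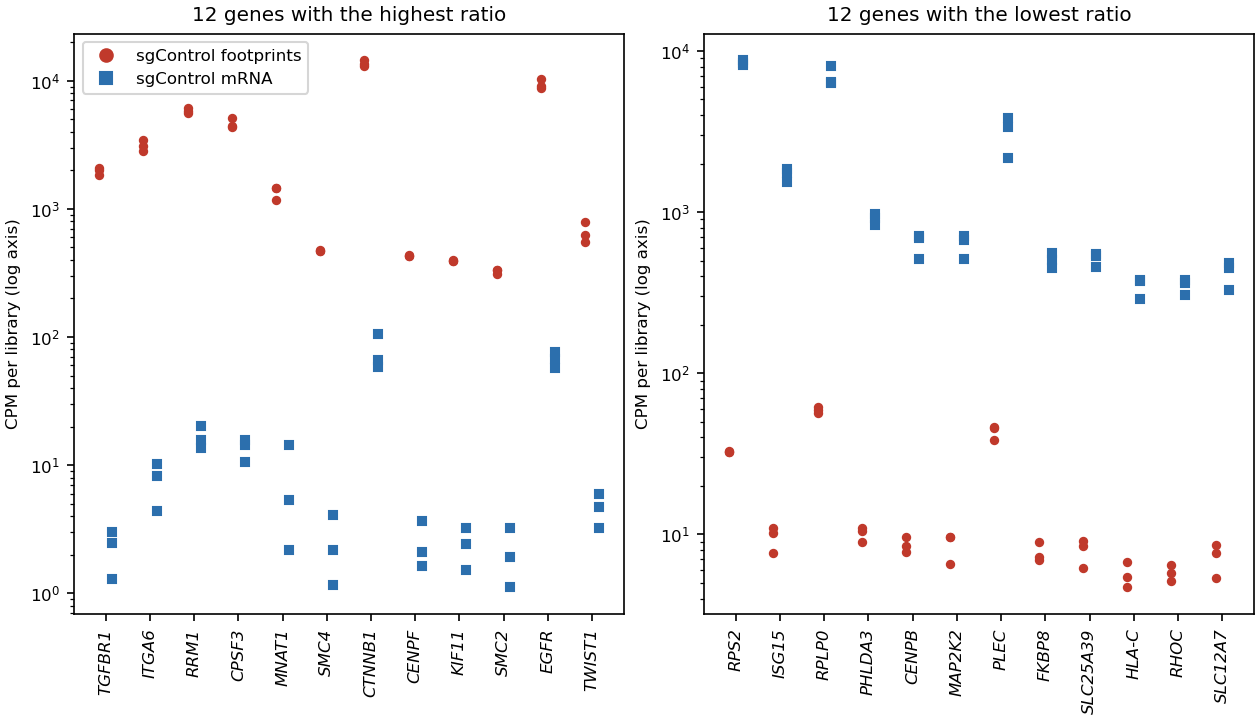
CPM per library on a log axis for the 12 highest (left) and 12 lowest (right) log2 ratios, with footprints as circles and mRNA as squares, 3 libraries each. The 24 genes were picked for extreme ratios in these libraries, so the gap between the assays is a description. The mRNA libraries are the more spread: MNAT1 runs from 2.16 to 14.2 CPM in mRNA.

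A set of 45 coding genes stood apart in the sgControl footprints: their counts differed between the 3 libraries beyond sampling noise (adjusted p under 0.05, chi-square test). They held 14.95%, 14.17% and 13.38% of the coding footprints in the 3 libraries, against 1.829% of the coding mRNA counts. Of the 45, 42 were called higher in footprints and none lower, with a median log2 ratio of 5.01, against 31.9% of all coding genes called higher. The set was chosen on these footprints, so this count is a description. Those that differed most between the libraries by chi-square were ENO1, a glycolytic enzyme, PARK7, a redox chaperone, and NONO, a nuclear RNA-binding protein. PARK7 had 13830, 11750 and 10690 CPM in footprints, against 166, 185 and 313 CPM in mRNA. MDM2, the ubiquitin ligase of p53, had 9849, 9183 and 9460 CPM in footprints, against 7.19, 10.02 and 15.2 CPM in mRNA. PARK7, NONO and MDM2 were singled out after their values were seen, and the span of MDM2 overlaps CPM, another coding gene. Of the 12 highest ratios above, 8 are in the set; SMC4, CENPF, KIF11 and SMC2 are not.

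The same 45 genes held 14.13% of the coding footprints of sgControl cells when the libraries are summed (95% Wilson interval 14.12% to 14.15%, counting error only), 2.414% in sgDAMP cells and 0.8564% in Scramble cells. In mRNA they held 1.829%, 1.437% and 1.012% in the same order of conditions. Of the 45, 38 had footprints at least 4-fold above those of sgDAMP cells, against 71 of the 10288 coding genes with at least 30 footprints in either condition. EGFR had 9388 CPM of footprints in sgControl cells, 606 in sgDAMP cells and 131 in Scramble cells, beside 66.9, 66.7 and 191 CPM of mRNA. TWIST1 had 652, 3.58 and 24.3 CPM of footprints, beside 4.63, 3.79 and 10.3 CPM of mRNA. The mRNA levels of these 2 genes differ less between conditions than their footprints do. Whether the footprints of the 45 genes arose in the sgControl cells was not tested, and their ratios are uncertain for that reason. Refitting without the 45 genes left 8795 of 8840 calls in place and in the same direction.

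**Figure D3:**
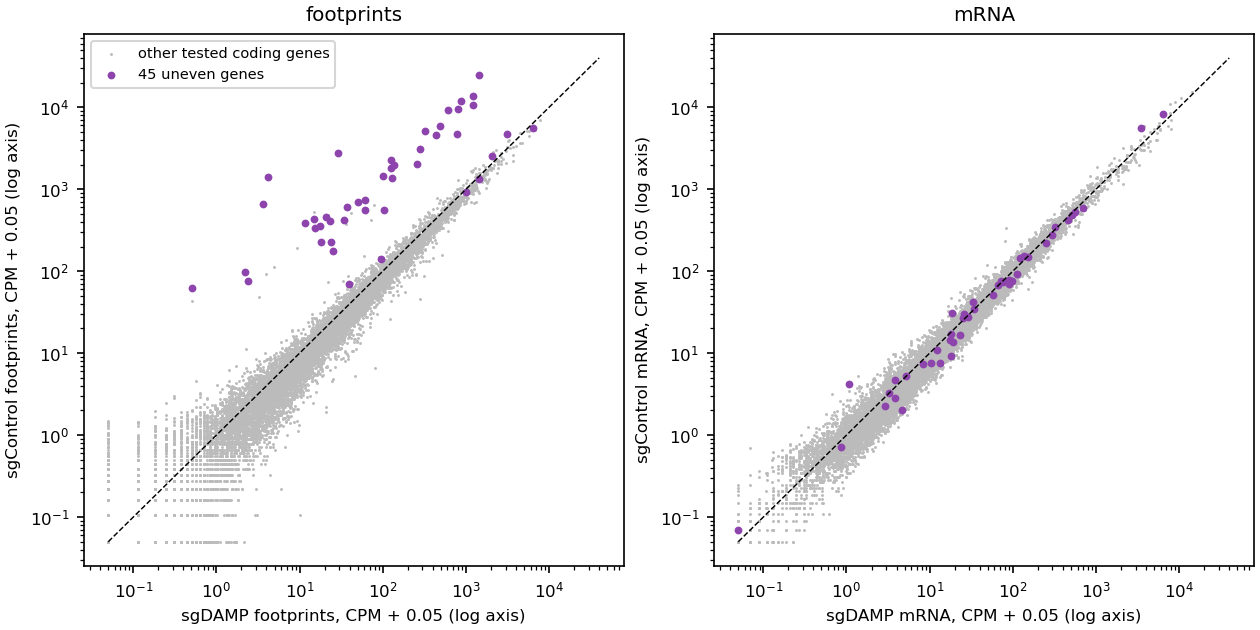
sgControl levels (vertical axes) against sgDAMP levels (horizontal axes) of footprints (left) and mRNA (right), CPM with 0.05 added, log axes. The 45 genes that differ between the sgControl footprint libraries lie mostly above the dashed line of equality in footprints, 38 of them at least 4-fold, and along it in mRNA.

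Ribosomal protein mRNAs had low ratios more often than high ones. Of 79 cytosolic ribosomal proteins tested, 42 were lower (36.5% over all genes), 15 were higher (31.9% over all genes) and the median log2 ratio was -1.34, against -0.31 over all genes. Their footprints summed to 60780 CPM, against 119700 to 164400 CPM in mRNA. The members ran from -7.75 for RPS2 to 2.81 for RPL23A, whose span overlaps TLCD1. RPS19 was close to even, with 4440, 4488 and 4510 CPM in footprints, against 5315, 5031 and 7627 CPM in mRNA (log2 ratio -0.14, SE 0.33, edgeR adjusted p = 0.728). The members of one particle thus lay on both sides of 0. Reads with more than one alignment made up 23.59% to 23.73% of footprint reads and 5.06% to 5.29% of mRNA reads. Their part in these ratios and in those of the other TOP mRNAs was not tested. The other TOP mRNAs (17 tested) had 7 higher (41.2%) and 6 lower (35.3%) with a median of -0.37, near the shares over all genes. EEF1A1 and EEF2, the elongation factors, stood at -4.12 (SE 0.48) and -3.24 (SE 0.46), and VIM, vimentin, at 3.27 (SE 0.33).

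To show whether low and high members share the TOP start, the bases around the RefSeq transcription start (GRCh38.p14) are printed. They are given for 4 low and 4 high called ribosomal proteins that have a sequence and at least 100 counts in each assay. The same bases are given for 4 other TOP mRNAs. The ribosomal proteins shown are not the extremes of all those with a sequence. The highest log2 ratio of a ribosomal protein with a TOP start, 2.28, belongs to a gene that is not shown. Each line has 15 bases before the start and 15 from it, 5′ to 3′ on the transcript strand, with the run of C and T from a C at the start in capitals. Where the table lists more than 1 start, the first listed is shown. That applies to RPL11, whose other start lies 27 bases downstream, and to NPM1, whose other start lies 733 bases upstream at the first base of its annotated span.
RPLP0, chr12:120201097-120201126, minus strand: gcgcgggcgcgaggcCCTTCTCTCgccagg
RPL39, chrX:119791616-119791645, minus strand: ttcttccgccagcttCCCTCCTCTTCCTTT
RPL29, chr3:51995881-51995910, minus strand: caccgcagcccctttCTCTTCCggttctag
RPL12, chr9:127451392-127451421, minus strand: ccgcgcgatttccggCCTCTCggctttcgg
RPL11, chr1:23691764-23691793, plus strand: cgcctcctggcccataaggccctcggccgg
RPS24, chr10:78033848-78033877, plus strand: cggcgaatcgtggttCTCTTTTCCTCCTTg
RPL38, chr17:74203663-74203692, plus strand: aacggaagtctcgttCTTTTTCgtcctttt
RPS7, chr2:3575245-3575274, plus strand: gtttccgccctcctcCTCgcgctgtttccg
EEF1A1, chr6:73521018-73521047, minus strand: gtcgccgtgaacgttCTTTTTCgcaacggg
EEF2, chr19:3985449-3985478, minus strand: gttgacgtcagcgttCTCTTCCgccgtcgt
NPM1, chr5:171387834-171387863, plus strand: cggggagcctgcgtcCTTTCCCTggtgtga
EIF2S3, chrX:24054941-24054970, plus strand: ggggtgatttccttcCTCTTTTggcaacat

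The 4 lowest ribosomal proteins shown (log2 ratio -6.59 for RPLP0, -5.58 for RPL39, -5.00 for RPL29 and -4.83 for RPL12) all carried the run. RPS24 (2.12) and RPL38 (1.77) among the highest shown carried it too. RPL11 (2.15) had none at the start shown and a run of 8 at its other listed start, and RPS7 (1.42) had a run of 3. A TOP start, counted as C at the start followed by at least 4 C or T on the transcript strand, was found for 68.3% of 63 ribosomal proteins with a sequence, for 5.4% of tested coding genes and for 4.04% of all promoters in the table. Ribosomal proteins with it had a median log2 ratio of -0.57 (n = 43, from -6.59 to 2.28) and those without it -1.40 (n = 20, from -4.30 to 2.15). Of the 63, 10 have more than 1 listed start. Counting a TOP start at any of them gave 47 with it (median -0.56) and 16 without (median -2.03). EEF1A1, EEF2, NPM1 (2.80) and EIF2S3 (2.88) all carried the run at the start shown, at ratios on both sides of 0.

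Initiation factors had high ratios more often than low ones. Of 37 initiation factors, 19 were higher in footprints (51.4%, against 31.9% over all genes) and 6 lower (16.2%, against 36.5% over all genes), with a median of 0.96. EIF3C, a subunit of the scaffold eIF3, had 970, 957 and 983 CPM in footprints, against 27.3, 23.2 and 19.9 CPM in mRNA, a log2 ratio of 5.63 (SE 0.37, edgeR adjusted p = 1.48e-07). EIF3C has a near-identical copy and is uncertain for that reason. EIF5B, which joins the subunits, stood at 6.21 (its span overlaps REV1), and DENR, which acts in reinitiation, at 3.77. EIF3G, another eIF3 subunit, stood at -3.32, so subunits of one complex lay far apart. Aminoacyl-tRNA synthetases (20 tested) had 7 higher and 9 lower around a median of 0.20, which turns to -0.09 with total-count scaling. RARS1, TARS1 and GARS1 stood at 5.67, 4.76 and 3.65, and VARS1, FARSA and QARS1 at -4.10, -3.72 and -3.36.

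The lists of stress response, iron-responsive element, selenoprotein and polyamine mRNAs differed in their counts. Not every member, TFRC among them, is known to be held back in translation. Of 27 mRNAs of stress response genes regulated by upstream open reading frames, 9 were higher (33.3%) and 8 lower (29.6%), with a median of -0.11. These shares are near the 31.9% and 36.5% over all genes, so nothing is read from them. PPP1R15A, a phosphatase subunit that reverses the stress block on eIF2, stood at -3.36 (SE 0.45), and ATF4, the central transcription factor of the response and 1 of the 45 uneven genes, at 0.49 (SE 0.37, edgeR adjusted p = 0.249). The ferritin light chain FTL had 545, 558 and 574 CPM in footprints, against 15700, 16070 and 14810 CPM in mRNA, a log2 ratio of -4.52 (SE 0.40, edgeR adjusted p = 1.15e-06). FTH1, the heavy chain, stood at -9.01 (SE 0.57), with 90 summed footprints and a span that overlaps BEST1. The part of reads with several alignments in both ferritin values was not tested. TFRC, the transferrin receptor, stood at 0.89 (SE 0.42) and did not pass (edgeR adjusted p = 0.0722). In all, 1 of 9 iron-responsive element mRNAs was higher and 3 were lower. Among 20 selenoproteins 4 were higher (20%) and 13 lower (65%), with a median of -1.80. GPX1, a glutathione peroxidase, had 2.20, 2.40 and 2.91 CPM in footprints, against 1103, 1145 and 1166 CPM in mRNA, a log2 ratio of -8.54 (SE 0.58). TXNRD1, thioredoxin reductase, stood at 4.12. Of 16 polyamine genes 2 were higher and 8 lower, with a median of -2.61 (-1.96 when the member with no footprint is set to its bound). ODC1, the first enzyme of the pathway, stood at -2.99 (SE 0.51), and AMD1, which makes decarboxylated S-adenosylmethionine, at 3.79 (SE 0.43; its span overlaps CDK19).

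Replication-dependent histones had the highest median of the lists. Of 60 tested, 57 were higher in footprints (95%, against 31.9% over all genes) and none lower. Their median was 7.95, and 7.78 when the 2 that have no mRNA count are set to a floor of 3 counts over the group. H1-4, a linker histone, had 1511, 1550 and 1566 CPM in footprints, against 1.64, 1.43 and 2.65 CPM in mRNA. H2BC14 had 11890 summed footprints and 1 summed mRNA count. Of the 60, 29 had fewer than 30 summed mRNA counts, and near-identical copies share reads, so single histone ratios are uncertain. Histone variants whose mRNAs carry a poly(A) tail had 2 higher and 5 lower of 11, with a median of -1.0. H1-10 stood at -3.84 and CENPA, the centromeric variant, at 2.94. The replication-dependent list lay above the median gene by 6.79 in sgControl cells, 6.53 in sgDAMP cells and 8.18 in Scramble cells, on the simple log2 scale (CPM + 0.5).

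Mitosis and DNA replication genes had high ratios. Of 38 mitosis genes, 33 were higher in footprints (86.8%, against 31.9% over all genes), none was lower and the median was 3.30. KIF11 had 401, 393 and 394 CPM in footprints, against 1.52, 3.22 and 2.41 CPM in mRNA. The cytokinesis motor KIF23 stood at 6.64 (SE 0.40), the kinetochore protein NUF2 at 7.57 (SE 0.52) and the checkpoint kinase TTK at 6.08 (SE 0.42). AURKB, CDC25B, AURKA, CDC25C and MAD2L1 did not pass, at -0.75 to 0.82. In a bulk culture, the number of cells in mitosis and the RNA per such cell cannot be told apart. Of 42 DNA replication genes, 25 were higher and 8 lower, with a median of 1.59. RRM2, the other ribonucleotide reductase subunit, had 991, 1003 and 1003 CPM in footprints, against 29.5, 37.5 and 36.1 CPM in mRNA, a log2 ratio of 5.14 (SE 0.34).

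**Figure D4:**
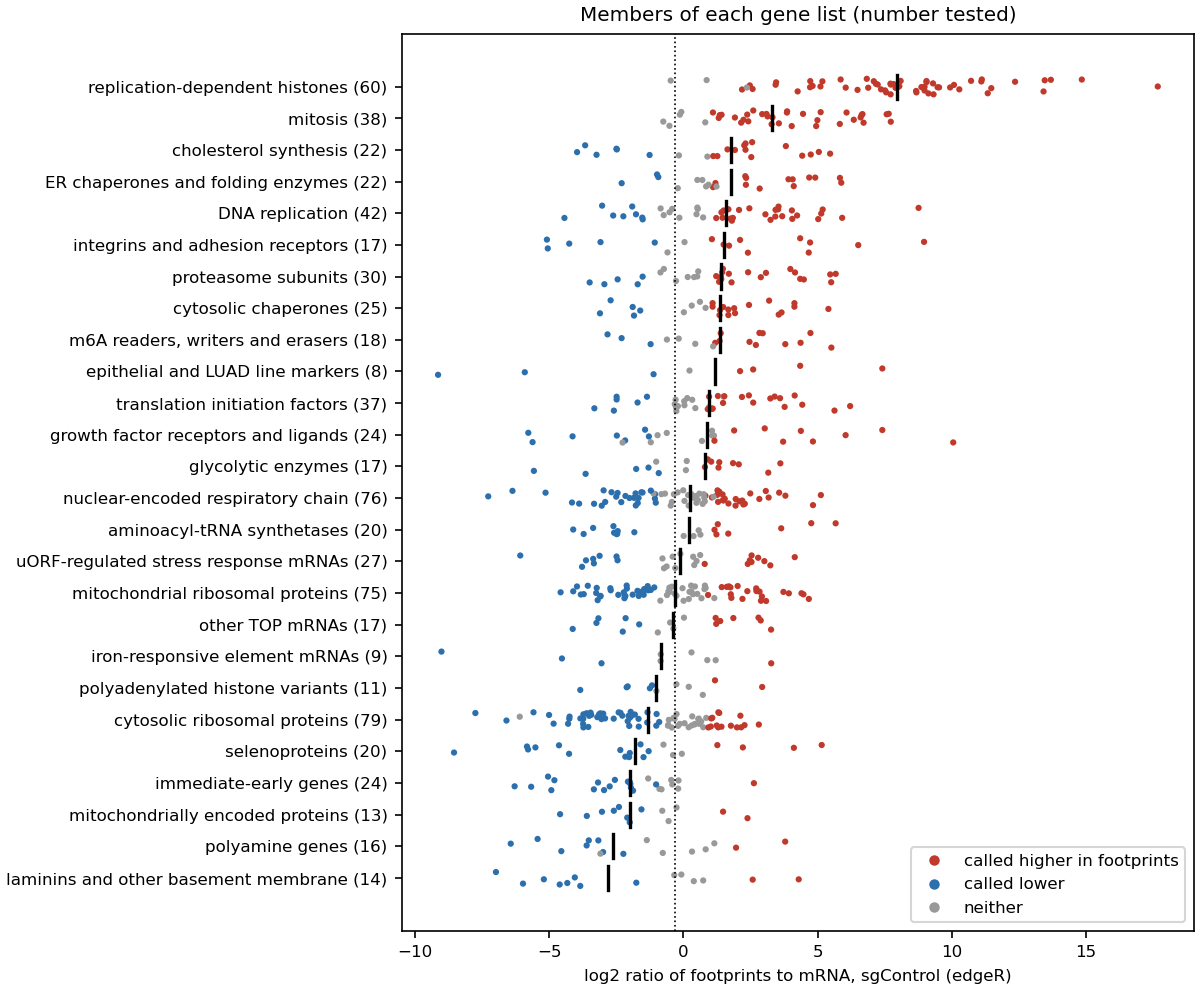
Log2 ratio of footprints to mRNA for each member of the gene lists with at least 8 members tested in sgControl cells, coloured by the edgeR call, with black bars at list medians and a dotted line at the median of all coding genes (-0.31). List medians run from -2.80 for laminins and other basement membrane genes to 7.95 for replication-dependent histones, and most lists hold members called in both directions.

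Of the protein folding and degradation genes, 59.1% to 64% of each list were higher, against 31.9% over all genes. Endoplasmic reticulum chaperones had 13 higher and 3 lower of 22 (median 1.77), cytosolic chaperones 16 and 5 of 25 (median 1.37), and proteasome subunits 18 and 5 of 30 (median 1.41). HSP90B1, the Hsp90 of the endoplasmic reticulum, had 1812, 1780 and 1817 CPM in footprints, against 28.1, 38.6 and 44.8 CPM in mRNA, a log2 ratio of 5.88 (SE 0.35). P4HB, a protein disulfide isomerase, was the lowest of that list at -2.30. HSPA4, an Hsp70 exchange factor, stood at 5.40, and PSMD14, the deubiquitinase of the proteasome lid, at 5.51. Cholesterol synthesis genes had 14 higher and 6 lower of 22 (median 1.78). SQLE, squalene epoxidase, had 357, 367 and 371 CPM in footprints, against 16.5, 16.5 and 29.2 CPM in mRNA, a log2 ratio of 4.43 (SE 0.39). PMVK, phosphomevalonate kinase, stood at -3.66 (SE 0.52). Glycolytic enzymes had 9 higher and 5 lower of 17 (median 0.80), among them LDHA at 2.06 (SE 0.32) and PKM, pyruvate kinase, at -3.64 (SE 0.42).

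Of the 13 proteins encoded in mitochondrial DNA, which mitochondrial ribosomes translate, 8 were lower (61.5%, against 36.5% over all genes) and 2 higher, with a median of -2.0. MT-CO2, a cytochrome oxidase subunit, had 248, 243 and 252 CPM in footprints, against 2891, 4070 and 3961 CPM in mRNA, a log2 ratio of -3.60 (SE 0.42). MT-ND5, of complex I, stood at 1.48 (SE 0.33). Nuclear-encoded respiratory chain genes had calls in both directions (25 higher and 27 lower of 76, median 0.24, or -0.04 with total-count scaling), as did mitochondrial ribosomal proteins (22 and 31 of 75, median -0.32). Both lists lie near the shares over all genes, 31.9% higher and 36.5% lower. Neither the difference between these lists nor the part of cycloheximide in the footprints of mitochondrial ribosomes was tested.

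Signalling and surface genes varied within each list. Of those named below, IGF1R is 1 of the 45 uneven genes. Immediate-early genes, the first transcripts to respond to growth factors, had 1 higher and 16 lower (66.7%, against 36.5% over all genes) of 24, with a median of -1.99. FOSL1, an AP-1 subunit, had 11.7, 9.93 and 12.3 CPM in footprints, against 478, 422 and 329 CPM in mRNA, a log2 ratio of -4.92 (SE 0.55). MYC was the member called higher, at 2.63 (SE 0.35). Growth factor receptors and ligands had 9 higher and 7 lower of 24 (median 0.88), with the receptors IGF1R at 6.05 and MET at 4.83 and the ligands EREG and AREG at 4.38 and 3.72. Integrins and adhesion receptors had 10 higher and 5 lower of 17 (median 1.5), with ITGAV at 6.51 and ITGA5 at -5.08. Laminins and other basement membrane genes had 2 higher and 8 lower of 14 (median -2.80, or -1.49 when the member with no footprint is set to its bound). LAMB3 had 2.20, 2.24 and 2.59 CPM in footprints, against 412, 385 and 273 CPM in mRNA, a log2 ratio of -6.98 (SE 0.63), while LAMA3, a chain of the same laminin, stood at 4.30 (SE 0.41). Zinc finger genes named ZNF had 131 higher and 104 lower of 354, around a median of 0.25 that turns to -0.02 with total-count scaling. The zinc finger genes (37% higher, 29.4% lower) and the receptors and ligands (37.5% and 29.2%) lie near the shares over all genes (31.9% and 36.5%).

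The genes the study is about lay within this range. DSP, the desmosomal linker desmoplakin on chromosome 6 (7541671 to 7586714), had 174, 180 and 171 CPM in footprints, against 68.8, 68.0 and 57.6 CPM in mRNA, a log2 ratio of 1.70 (SE 0.37, edgeR adjusted p = 0.00116). YTHDF1, a cytoplasmic reader of N6-methyladenosine (m6A) on chromosome 20 (63195429 to 63216131), had 9.69, 7.53 and 9.70 CPM in footprints, against 72.6, 69.7 and 88.4 CPM in mRNA, a log2 ratio of -2.83 (SE 0.50, edgeR adjusted p = 2.25e-04). It was the lowest of 18 m6A readers, writers and erasers, of which 11 were higher and 3 lower (median 1.37). The paralogs YTHDF2 and YTHDF3 stood at 2.70 (SE 0.39) and 4.37 (SE 0.47). Of the methyltransferase pair, METTL14 stood at 4.74 and METTL3 at -1.22.

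DSP-AS1, the lncRNA that encodes DAMP, lies on chromosome 6 from 7540451 to 7543083, and its span overlaps DSP. It had 175, 176 and 216 footprint counts, against 299, 328 and 309 mRNA counts. With all annotated genes in the fit and the scaling of coding genes, its log2 ratio was 1.05 (SE 0.41, edgeR adjusted p = 0.0329), and 0.48 with total counts. Without strand information, which the sources used here do not give, reads of DSP cannot be told apart from those of DSP-AS1. Of 1024 lncRNAs tested, 128 (12.5%; 78 with total counts) were higher in footprints and 420 (41%) lower, with a median of -1.69, against -0.31 for coding genes. Of all 18008 genes in that fit, 39.7% were higher and 32.2% lower (71.9% in all). At least 10 footprints in each library were found for 204 lncRNAs and 9301 coding genes. MALAT1, an RNA kept in the nucleus, held the most, with 2710, 2795 and 2859 footprint counts, against 12, 91 and 470 mRNA counts, which differ so much that its ratio carries little weight. LINC01962 had 1739, 1761 and 1697 footprint counts, against 4, 5 and 1 mRNA counts (log2 ratio 10.74, SE 0.55), and LINC00324 had 587, 505 and 568, against 3, 6 and 5 (8.63, SE 0.50). The snoRNA hosts SNHG29 (0.24), SNHG16 (2.28), SNHG8 (0.43) and SNHG3 (1.88), and CYTOR (1.70), POLG-DT (6.72) and LCIIAR (-0.30) made up the rest of the 10 with most footprints. The spans of SNHG29, POLG-DT, LCIIAR and SNHG3 overlap coding genes.

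The ratios of sgControl cells were set beside those of the other conditions, which share none of its libraries. Over 2877 coding genes with at least 30 summed counts in all 6 groups, the simple log2 ratio correlated with that of sgDAMP cells at r = 0.97 (rho 0.98) and with that of Scramble cells at r = 0.08 (rho 0.03). These are descriptions across genes, which are not independent. The SD of the ratio was 2.65 in sgControl cells, 2.40 in sgDAMP cells and 1.39 in Scramble cells. Footprints and mRNA correlated at r = 0.35 within sgControl, 0.40 within sgDAMP and 0.53 within Scramble cells. sgControl footprints correlated at r = 0.44 with Scramble mRNA, beside the 0.35 with their own mRNA. The read classes of both controls differed. Reads in no feature made up 1.15% to 1.43% of sgControl mRNA and 42.51% to 43.2% of Scramble mRNA, and ambiguous reads made up 13.68% to 14.3% of sgControl mRNA and 3.13% to 3.21% of Scramble mRNA. Coding genes held 6.7% to 20.52% of the Scramble footprints. Counting, depth and condition cannot be told apart here.

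The difference of the ratio between sgControl and Scramble cells was tested as an interaction. It was higher in sgControl for 3820 (28.3%) and lower for 3310 (24.5%) of 13491 coding genes, 52.9% in all. Where at least 10 counts in every library were required, which leaves fewer genes to test, 488 were higher and 737 lower. More genes were then lower than higher, the reverse of the main fit. The number tested under that filter is not given, so these counts are not set against the shares above. For YTHDF1 the difference was -4.87 (SE 0.52, edgeR adjusted p = 3.69e-08), with 8.94 CPM in footprints and 76.9 CPM in mRNA of sgControl cells, against 314 CPM in footprints and 99.1 CPM in mRNA of Scramble cells. For DSP it was 0.42 (edgeR adjusted p = 0.486). Among the lists, mitosis, cholesterol synthesis, endoplasmic reticulum chaperone and integrin genes lay between 1.48 and 3.51 above the median gene in all 3 conditions. Selenoproteins lay at -1.53 relative to the median gene in sgControl cells, -1.65 in sgDAMP cells and 0.62 in Scramble cells. The mitochondrially encoded genes lay at -1.77, -1.52 and 0.37, the laminins at -0.98, -0.82 and 0.75, and the initiation factors at 1.18, 1.17 and -0.37. The list differences themselves were not tested.

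**Figure D5:**
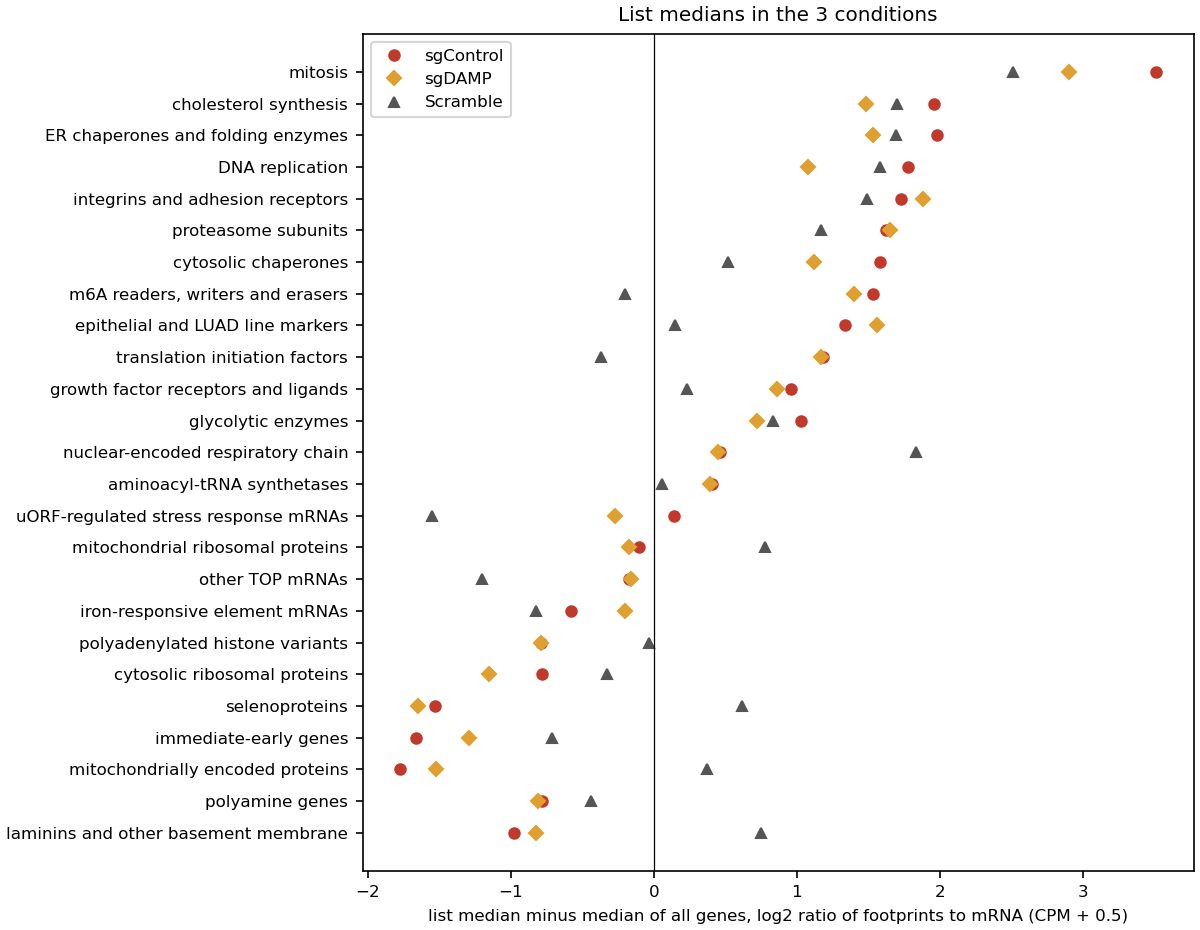
Median simple log2 ratio (CPM + 0.5) of each list minus the median of all coding genes, in sgControl, sgDAMP and Scramble cells. sgControl and sgDAMP points lie close together, while selenoproteins (-1.53 in sgControl, 0.62 in Scramble) and mitochondrially encoded genes (-1.77 in sgControl, 0.37 in Scramble) change side in Scramble cells.

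A further 3 features of the genes were set against the ratio, as descriptions across genes. Ratios were higher for genes with a long span (rho 0.24 over 12999 genes): from the shortest to the longest of 4 nearly equal groups of genes the median log2 ratio was -1.47, -0.71, 0.26 and 0.76, and the share called higher was 20%, 26.65%, 37.92% and 42.89%. Span includes introns, and transcript length was not used here. Within the 2877 genes measured in every condition, span and ratio correlated at rho 0.26 in sgControl cells, 0.27 in sgDAMP cells and -0.12 in Scramble cells. Span also went with the sgControl over Scramble difference in mRNA (rho -0.47), and little with that in footprints (rho 0.05). GC content from 250 bases before to 50 after the start correlated with the ratio at rho -0.12, and that of the first 50 bases at rho -0.12. From the lowest to the highest of 4 nearly equal groups by the GC content of those first bases the median ratio was 0.28, 0.09, -0.19 and -0.98. A start sequence was at hand for 81.61% of the tested genes. Genes whose span overlaps another coding gene had a median ratio of -0.35, and those without an overlap -0.29.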

How the data were processed

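The authors deposited 1 table per library with whole-number counts for each gene in the form HTSeq writes, per the file contents. The submitters' processing notes name Trimmomatic 0.30, HISAT2 2.1.0, SAMtools 1.10, HTSeq 0.11.2, edgeR and the build GRCh38. Not given in the sources used here are the annotation release, the strand setting and what was done with multiply aligned reads. Closing lines on unassigned reads were left out. They held 65.81% to 66.37% of sgControl footprint reads and 22.24% to 23.92% of sgControl mRNA reads. Names, spans and gene types came from RefSeq (GRCh38.p14) by symbol.

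Coding genes were scaled on their own by TMM over both assays, filtered with filterByExpr (minimum count 10) and tested in R 4.3.3 with edgeR 4.0.16 (its quasi-likelihood F test, two-sided), with Benjamini-Hochberg adjustment over all genes tested (threshold 0.05). The sgControl footprint libraries, which agree within sampling noise apart from 45 genes, entered as 1 summed sample, assumed to vary like the mRNA libraries. SE is the log2 ratio over the root of F. lncRNAs were fitted with all annotated genes at the scaling of the coding genes. CPM is not per length, so levels of different genes are not compared. Simple ratios use CPM + 0.5. Same-numbered libraries of both assays deviated with correlations from -0.003 to 0.003. Since the footprint libraries agree within sampling noise apart from 45 genes, this cannot show whether the numbers pair.

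Named genes are DSP, DSP-AS1, YTHDF1, the 12 highest and 12 lowest called log2 ratios (outside replication-dependent histones, at least 100 summed counts in each assay, mean log2 CPM of at least 4, no coding overlap), in each list the called members with the smallest p (6 at most), and the 10 lncRNAs with most footprints. Named outside this rule, after their values were seen, were KRT7, ATF4, TFRC, RPS19, RPL23A, EIF3G, P4HB, METTL3, ODC1, MT-ND5, PARK7, NONO, MDM2, the mitosis genes that did not pass, and RPL11, RPS24, RPL38 and RPS7, shown for their start sequences. The genes, lists and comparisons were chosen with earlier results of these data known. Alternatives were other scalings, filters, tests (DESeq2 1.42.0, limma-voom of limma 3.58.1), a replicate block and leaving out each library. Chosen after seeing the data were the fits with Scramble mRNA and without the 45 uneven genes. The interval and floors given cover counting error alone, because PCR copies of a molecule were not told apart. A result for 1 gene is not reported here.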

Additional observations from a re-analysis of the deposited data

Results flagged for a closer look

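The genes listed here were singled out because their ratio of footprints to mRNA differs between sgControl and Scramble cells by the test of the difference itself (edgeR interaction, adjusted p under 0.05). The test was run for 181 of the named genes and 159 of them passed, 93 higher and 66 lower in sgControl. Values are given for the genes at both ends of the ratio and for the study's genes, a restriction made after those results were seen. Over all coding genes 52.9% passed. Most named genes were picked by their p or ratio in sgControl cells. That ratio enters the difference, so the number of named genes that passed is a description.

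Among the 12 highest ratios, all of which passed, the sgControl minus Scramble difference on the log2 scale was 10.62 for TGFBR1, 8.31 for ITGA6, 7.73 for EGFR, 7.66 for CPSF3, 7.34 for SMC4, 7.23 for RRM1 and 7.14 for CTNNB1. It was 6.45 for MNAT1, 6.07 for SMC2, 5.90 for TWIST1, 5.61 for KIF11 and 5.36 for CENPF. Among the 12 lowest, all of which passed, it was -7.23 for ISG15, -6.56 for RHOC, -6.29 for SLC25A39, -5.90 for HLA-C, -5.54 for FKBP8, -5.52 for MAP2K2 and -5.24 for SLC12A7. It was -4.67 for PHLDA3, -4.10 for PLEC, -3.57 for CENPB, -3.28 for RPLP0 and -1.98 for RPS2. YTHDF1 differed by -4.87, and DSP did not pass. The genes at each end were picked by their ratio in sgControl cells, which enters the difference, so its sign for them is a description. Scramble footprints summed over 3 libraries numbered 21 for KIF11, 45 for CENPF, 32 for RPS2 and 213 for RPLP0. The SEs of their differences were 0.50, 0.51, 0.47 and 0.38 in the same order. Read classes and footprint depth also differ between these conditions, and their part in the differences was not tested.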

How the results depend on the processing

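Every alternative to the scaling, filter, test and libraries kept the called counts of coding genes within 1.5 times the reported 4142 higher and 4745 lower. Without each library in turn they ran from 3389 to 4539 higher and from 3825 to 5100 lower. Scaling set the share of calls that were higher, 46.6% as reported and 41.9% with total counts, and moved the median log2 ratio by 0.11 (DESeq2 factors), -0.18 (upper quartile) and -0.28 (total counts). With the 3 footprint libraries as replicates, a replicate block gave 4554 higher and 5397 lower, against 4527 and 5473 without the block. For the difference from Scramble it gave 4190 and 3409, against 4236 and 3505. Whether the numbers pair the samples could not be shown. With Scramble mRNA in place of sgControl mRNA, 7485 of 8623 calls were made again in the same direction. A further 724 changed sign, of which 481 were called the opposite way. Both fits use the same sgControl footprints. The difference from Scramble passed for 488 higher and 737 lower genes where at least 10 counts in every library were required. That filter leaves fewer genes to test, and the balance turned: the main fit had 3820 higher and 3310 lower. Without each library the counts for this difference ran from 3572 to 4462 higher and from 2849 to 3294 lower. With total counts, 78 lncRNAs were higher, against 128; the cause was not tested. Of the values for named genes under the alternatives, 3058 kept direction and side and 13 lost the call, those of H2AJ, H3-3A, COL1A1 and PDGFRB. List medians relative to all genes moved by less than their spread in 379 cases and by more in 114. The list medians relative to all genes that changed sign in some setting were those of other TOP mRNAs, mRNAs regulated by upstream open reading frames, mitochondrial ribosomal proteins, leukocyte markers and zinc finger genes. Relative to the zero of the scaling itself, total counts turned the medians of aminoacyl-tRNA synthetases (-0.09), respiratory chain genes (-0.04) and zinc finger genes (-0.02).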
